A study of Mus musculus with 185 samples.

Results

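The 10 genes of the smooth muscle contractile apparatus are described here in single fibroblasts of the mouse heart: Acta2, Actg2, Tagln, Cnn1, Cnn2, Myl9, Cald1, Tpm1, Tpm2 and Actn1. They were chosen by name, as genes of actin, myosin light chain and actin-binding proteins used in smooth muscle, with earlier results of these data known, and some of them are also expressed widely outside it. All 10 were found among the 17171 genes of the deposited table. Their levels were followed over 9 label classes and 4 captures, and their detection together with Acta2 was counted cell by cell.

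Smooth muscle cells contract by sliding myosin along filaments of α-smooth muscle actin, the product of Acta2, with tropomyosins, calponins, caldesmon and transgelin bound along the filament and α-actinin linking filaments to each other. Fibroblasts of a healing wound can build the same type of fibres, and α-smooth muscle actin in such fibres is the classic mark of the myofibroblast. In the heart this state appears in the scar after infarction, where the cells also lay down matrix such as periostin, the product of Postn.

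The study used lineage tracing, in which a Cre recombinase permanently switches on eGFP in cells that express a chosen gene, to ask which cells of the injured heart become myofibroblasts. Cells negative for the endothelial marker CD31 and the leukocyte marker CD45 were sorted from left ventricles, captured singly on the Fluidigm C1 system and sequenced. The labels give every cell as a heart fibroblast of C57BL/6 mice of about 5 months. Each capture came from a separate tracing experiment, hearts were pooled by group, and the labels do not pair cells with mice.

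Mice carried the tamoxifen-inducible Cre MerCreMer in 1 allele of Postn (PostnMCM/+; R26-eGFP) or of Tcf21, a gene of resident fibroblasts (Tcf21MCM/+; R26-eGFP), so traced cells had been exposed to tamoxifen and carried the eGFP reporter. The resident capture held 33 cells of uninjured heart: 12 untraced Postn-negative cells (resident CD31-CD45-), 17 resident Tcf21-traced cells, 1 Postn+ cell outside the Tcf21 lineage and 3 Postn+ Tcf21+ cells. The paper's text gives untraced resident cells as from uninjured hearts, while a figure legend takes its control interstitial cells from the remote region. All other cells came from the infarct region, for traced cells 7 days after myocardial infarction. In the Postn-tracer capture, 27 cells were activated and Postn-traced, 24 were activated and Postn-negative, and 6 were Postn+ but untraced. A Tcf21-tracer capture held 44 activated Tcf21-traced cells and 19 Postn+ untraced cells, and a scar capture held 29 untraced cells of the scar and 3 Postn+ untraced cells. Postn+ and Postn-negative in these labels refer to Postn message in the cell, so Postn itself separates these classes by definition.

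Levels are given as log2 (TPM+1), the deposited scale, where TPM counts transcripts per unit of length and adds up to the same sum for each cell. Above 5 TPM, a minimum taken from the study's methods, a gene was called detected. The read depth of each cell is unknown, and the number of genes above 5 TPM stands in for it. That number had a median of 2092 in resident CD31-CD45- cells, 2264 in resident Tcf21-traced, 2342 in activated Postn-negative, 3280 in Postn+ untraced, 3643 in Postn-traced, 3134 in Tcf21-traced and 3177 in untraced scar cells. The part of depth in the differences between classes was examined by splitting cells on that number at the median of their capture, and not further. These medians were 2258 in the resident, 2715 in the Postn-tracer, 3299 in the Tcf21-tracer and 3198 in the scar capture. The split therefore does not match depth between captures. Cells were also centred, which shifts every gene of a cell alike and so cannot alter the members relative to all genes. A value listed at 0 can be a missed transcript: Gapdh, an abundant housekeeping gene, was listed at 0 in 9 cells. Each class counts as 1 sample, so no test was run. SDs are the spread between cells and not the error of a class mean, and shares carry exact 95% Clopper-Pearson intervals that cover counting error only. A difference within the SDs therefore does not show that classes are alike. How many of all genes exceed the larger SD of a pair was not counted. Where classes come from different captures, class and capture cannot be told apart.

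Acta2, at chr19:34240336-34255585 of build GRCm38.p6, was detected in 59 infarct cells (38.8%, interval 31% to 47%) and in 4 of 33 cells of uninjured heart (12.1%, interval 3.40% to 28.2%). Its promoter is shown because CArG boxes, 10-base motifs bound by serum response factor (SRF), are known from smooth muscle genes. RefSeq promoter windows of build GRCm38.p6 were searched, each running from 250 bases before to 50 after a start site. The motif is palindromic, so a search of one strand covers both. The Acta2 window held no exact box and 2 boxes with 1 mismatch, whose first bases lie 84 and 34 bases before the window's start site, at chr19:34255438-34255467 and chr19:34255388-34255417 on the minus strand. Both lie inside an annotated exon, and capitals mark the box.
Acta2 distal: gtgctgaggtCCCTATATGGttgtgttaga
Acta2 proximal: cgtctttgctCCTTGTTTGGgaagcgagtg

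Acta2 varied widely within each activated class. In the 27 Postn-traced cells it ran from 0.00 over a median of 4.91 to 10.23, with a mean of 4.25 ± 4.0 (SD) and 15 cells detected (55.6%, interval 35.3% to 74.5%). The 44 activated Tcf21-traced cells ran from 0.00 over 2.45 to 11.10, with a mean of 3.74 ± 3.76 and 22 cells detected (50%, interval 34.6% to 65.4%). Of these 44, 14 were listed at 0. The order of the traced classes depends on the minimum: above 1 TPM the shares were 59.3% of Postn-traced and 63.6% of activated Tcf21-traced cells, at any value over 0 59.3% and 68.2%, and in cells with at least the median genes of their capture, a subset chosen after seeing the data, 59.1% and 76.2%. That median was 2715 genes in the Postn-tracer and 3299 in the Tcf21-tracer capture, so these last shares are not matched for depth. The 28 Postn+ untraced cells had a mean of 3.75 ± 4.51, a median of 0.59 and a highest cell of 10.93, and 12 were detected (42.9%, interval 24.5% to 62.8%). These were unevenly spread over captures: the 6 in the Postn-tracer capture were all listed at 0, and 11 of the 19 in the Tcf21-tracer capture were detected (57.9%), with means of 0.00 and 4.95. The 6 cells also had fewer genes, a median of 2234 against 3361 in the 19. Values of this class pool its captures for every member, so its place among the classes depends on their mix.

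Fewer cells of the remaining classes had Acta2. Untraced scar cells ran from 0.00 over 0.00 to 10.14, with a mean of 1.80 ± 3.19 and 7 of 29 cells detected (24.1%, interval 10.3% to 43.5%). Activated Postn-negative cells had a mean of 0.96 ± 2.32, with 3 of 24 cells detected (12.5%, interval 2.66% to 32.4%) and a highest cell of 8.57. Resident Tcf21-traced cells had a mean of 1.16 ± 2.19, with 4 of 17 detected (23.5%, interval 6.81% to 49.9%) and a highest cell of 6.20. In resident CD31-CD45- cells the highest value was 0.96 and 0 of 12 cells were detected, with an interval up to 26.5%. The classes overlap, since each includes cells at 0.00. From highest to lowest mean the order was Postn-traced, Postn+ untraced, activated Tcf21-traced, scar, resident Tcf21-traced, Postn-negative and resident CD31-CD45-, and 0 of the 6 neighbouring pairs differed by more than the larger of their SDs. Neighbours in a sorted order lie close together, so such a count cannot show that the classes are alike.

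Among cells with Acta2, the medians of the infarct classes were higher than that of the resident Tcf21-traced cells, and the ranges overlap. The median of detected cells was 9.47 in Postn+ untraced, 7.52 in Postn-traced, 7.30 in the 3 Postn-negative, 7.02 in activated Tcf21-traced and 6.73 in scar cells. In the 4 detected resident Tcf21-traced cells it was 4.63, with values from 4.21 to 6.20. The lowest detected cell stood at 2.69 in activated Tcf21-traced, 2.78 in Postn+ untraced, 3.01 in scar, 3.97 in Postn-negative and 4.88 in Postn-traced cells.

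Actg2, the γ-actin of visceral smooth muscle (chr6:83512909-83536251), was rare. It was detected in 4 cells, all from the infarct: 2 Postn+ untraced cells, 1 Postn-traced cell and 1 scar cell. Each of these 4 cells also had Acta2. Acta2 shares 0 of its 2096 stretches of 100 bases, the read length, with another gene of the annotation, so no full-length read of another annotated actin matches it exactly.

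Tagln, the gene of transgelin (SM22α, an actin-bundling protein; chr9:45929628-45936058), was, like Acta2, found mostly in Postn+ and traced cells of the infarct. It was detected in 66 infarct cells (43.4%) and in 2 of 33 cells of uninjured heart (6.06%). Postn+ untraced cells ran from 0.00 over 6.39 to 12.09 with a mean of 5.23 ± 4.60, and 17 of 28 were detected (60.7%, interval 40.6% to 78.5%). By capture these were 1 of 6 with a mean of 1.45 in the Postn-tracer capture and 13 of 19 with a mean of 6.17 in the Tcf21-tracer capture. Postn-traced cells ran from 0.00 over 5.22 to 12.13 with a mean of 4.59 ± 4.63, and 14 of 27 were detected (51.9%, interval 31.9% to 71.3%). Activated Tcf21-traced cells had a mean of 4.05 ± 4.14 with 23 of 44 detected (52.3%), and scar cells 2.96 ± 3.89 with 11 of 29 detected (37.9%). Of the resident CD31-CD45-, resident Tcf21-traced and Postn-negative cells 1 each was detected, and the means were 0.56, 0.43 and 0.41. Its classes also overlap at 0.00, and 0 of 6 neighbouring pairs in the order of means were apart by more than the larger SD. Of the 1983 stretches of 100 bases of Tagln, 957 (48.3%) also occur in another annotated gene, 948 of them in Gm48529, a gene on the opposite strand. Libraries of this kind keep no strand, so reads of the pair cannot be told apart there.

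The calponins, which bind actin and slow myosin, split by gene. Cnn1, the smooth muscle form (chr9:22099221-22109221), was detected in 3 cells, 1 activated Tcf21-traced and 2 scar cells. Cnn2, the broadly expressed form (chr10:79988600-79995400), was detected in 83 infarct cells (54.6%) and in 16 of 33 cells of uninjured heart (48.5%), whose intervals overlap (46.3% to 62.7% and 30.8% to 66.5%). Its class means were highest in activated Tcf21-traced (5.80 ± 3.91), Postn-traced (5.36 ± 3.96) and Postn+ untraced cells (5.20 ± 4.17). Resident CD31-CD45- cells followed at 4.27 ± 4.77, with a highest cell of 11.01. The lowest mean was that of Postn-negative infarct cells, 1.58 ± 2.49, with 6 of 24 detected (25%). Cnn2 thus differed from Acta2 and Tagln in being common in uninjured heart. Its promoter window held 1 exact CArG box at chr10:79988534-79988563 on the plus strand, whose first base lies 56 bases before the start site and outside annotated exons.
Cnn2: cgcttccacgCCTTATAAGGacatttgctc

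Myl9, a regulatory light chain of smooth muscle myosin (chr2:156775408-156781657), was the member whose mean log2 level differed most between the traced classes. In Postn-traced cells it ran from 0.00 over 5.18 to 10.07 with a mean of 4.05 ± 3.92, and 15 of 27 cells were detected (55.6%, interval 35.3% to 74.5%). In activated Tcf21-traced cells the median was 0.00 and the mean 1.82 ± 3.07, and 12 of 44 were detected (27.3%, interval 15% to 42.8%). These intervals overlap. In uninjured heart 1 of 33 cells was detected. That cell, a resident CD31-CD45- cell, stood at 10.08, and the highest Myl9 of all cells was 12.87 in a scar cell. The Myl9 window held an exact box at chr2:156775293-156775322 and a box with 1 mismatch at chr2:156775355-156775384, both on the plus strand and outside annotated exons, with first bases 161 and 99 bases before the start site.
Myl9 exact: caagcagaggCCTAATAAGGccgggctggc
Myl9 with 1 mismatch: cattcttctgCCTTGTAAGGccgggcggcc

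Cald1, the gene of caldesmon, which blocks myosin binding on the filament (chr6:34598495-34775469), was near universal. It was detected in 170 cells (91.9% of all), between 82.8% and 97.7% in each of the 7 classes with at least 12 cells. Its means ran from 6.40 ± 3.77 in resident CD31-CD45- cells to 8.41 ± 3.07 in Postn+ untraced cells. The table gives 1 value per gene, so the smooth muscle and non-muscle isoforms of caldesmon and of the tropomyosins are summed.

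The tropomyosins, coiled coils that lie along the filament and gate myosin, differed from each other. Tpm1 (chr9:67022590-67049672) was already common in Postn-negative infarct cells, where it ran from 0.00 over 5.69 to 9.78 and 20 of 24 cells were detected (83.3%). In Postn-traced cells it ran from 0.00 over 7.38 to 10.32 and 24 of 27 were detected (88.9%). Resident Tcf21-traced cells had it in 10 of 17 (58.8%) and resident CD31-CD45- cells in 2 of 12 (16.7%), the widest contrast of any member between the resident classes. Tpm2 (chr4:43513726-43523583) was detected in 18 of 27 Postn-traced cells (66.7%, interval 46% to 83.5%), against 2 of 24 Postn-negative cells (8.33%, interval 1.03% to 27%). Those intervals do not overlap. Scar cells had it in 14 of 29 (48.3%), Postn+ untraced cells in 13 of 28 (46.4%), activated Tcf21-traced cells in 18 of 44 (40.9%) and resident Tcf21-traced cells in 3 of 17 (17.6%). In resident CD31-CD45- cells Tpm2 was listed at 0 in all 12.

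Actn1, an α-actinin that cross-links filaments in stress fibres and at adhesions (chr12:80167542-80260420), gave the largest difference in mean log2 level of any member between Postn-traced and Postn-negative cells. It was detected in 24 of 27 Postn-traced cells (88.9%, interval 70.8% to 97.6%), which ran from 0.00 over 8.55 to 10.14. Of the 28 Postn+ untraced cells 24 were detected (85.7%), of the 44 activated Tcf21-traced cells 35 (79.5%) and of the 29 scar cells 20 (69%). In Postn-negative cells it ran from 0.00 over 0.00 to 9.46, with 8 of 24 detected (33.3%, interval 15.6% to 55.3%). Resident Tcf21-traced cells had it in 5 of 17 (29.4%) and resident CD31-CD45- cells in 1 of 12 (8.33%). As with the other members, 0 of 6 neighbouring classes in the order of means differed by more than the larger SD, although detection ran from 8.33% to 88.9%. Actn1 shares 264 of 5520 stretches (4.78%) with Gm47766, and the members other than Actn1 and Tagln share 0.

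**Figure D1:**
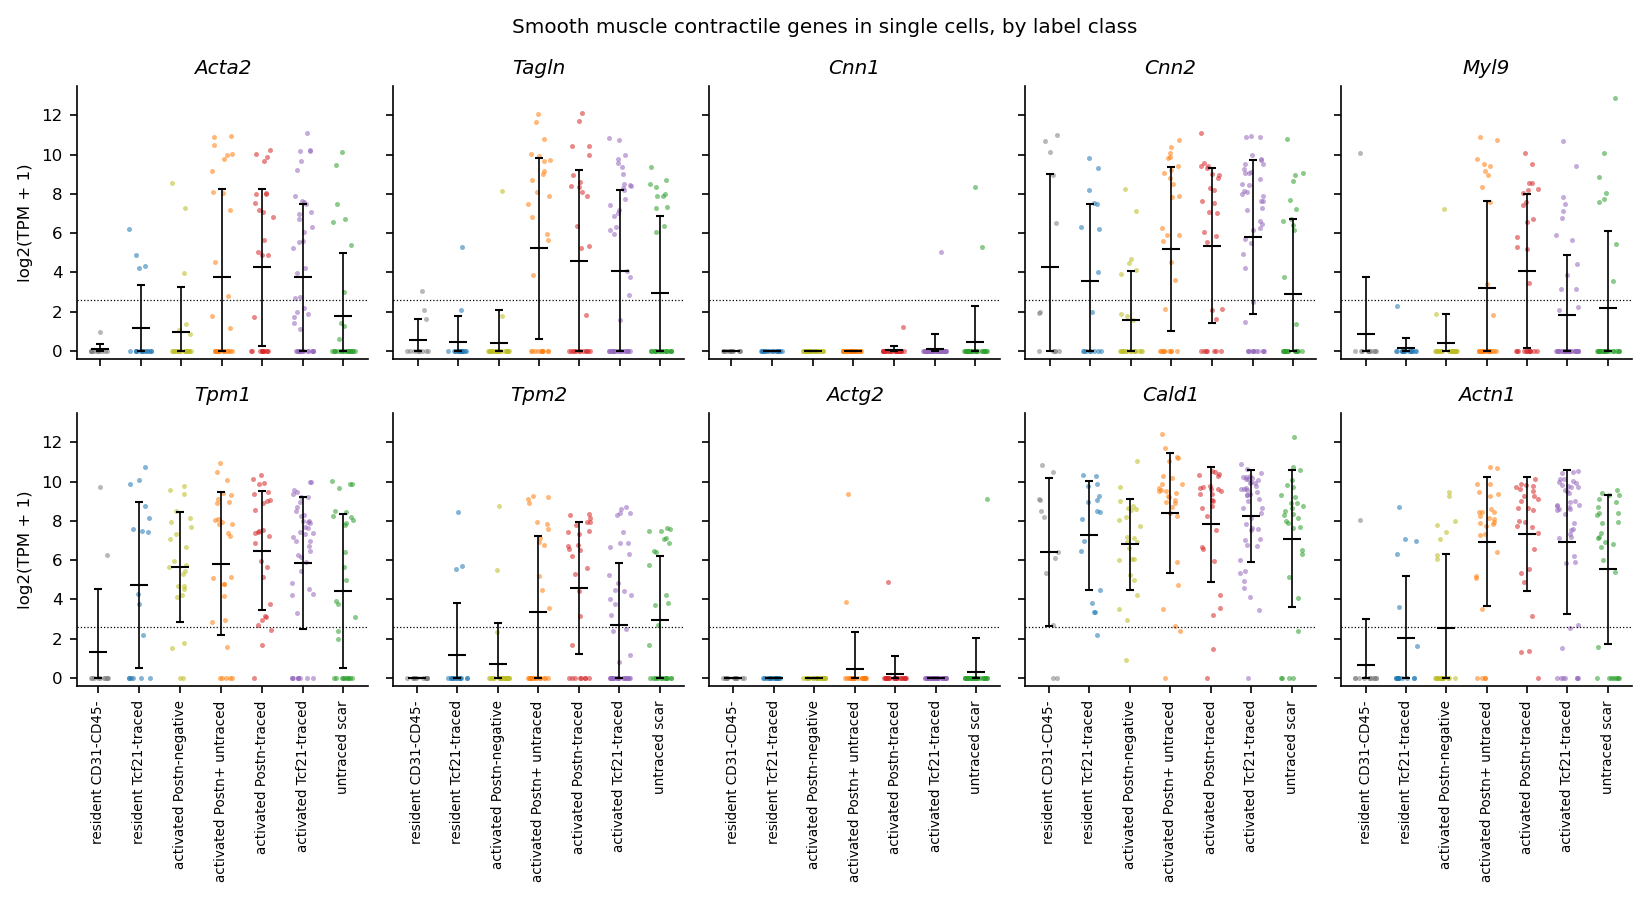
Level in log2 (TPM+1) of each of the 10 genes in every cell, by label class, with points spread sideways for view, the class mean with its SD between cells (bars stop at 0), and a dotted line at 5 TPM; the 4 Postn+ cells of uninjured heart are not drawn. Acta2, Tagln, Myl9 and Tpm2 have many cells at 0 and many above the line within each activated class except the Postn-negative one, while Cald1 lies above the line in nearly every cell.

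Of the 10 members, 8 matched a RefSeq promoter window, with 9 windows among them; Tagln and Actg2 had none. An exact CArG box was found in 2 of these 8 genes (25%), Cnn2 and Myl9, and an exact box or one with 1 mismatch in 3 (37.5%). Counted in the same way per gene, 488 of all 27025 genes with a window (1.81%) had an exact box and 3050 (11.3%) either kind. The other lists, each of a few genes, lay on both sides of the members. Of 9 striated muscle genes with a window 33.3% had an exact box and 44.4% either kind, of 5 genes of SRF and its cofactors 40% and 40%, and of 10 non-muscle isoforms 10% and 30%. The 6 genes that define smooth muscle, the 7 pericyte and the 3 myofibroblast matrix genes with a window had 0 of either kind. The endothelial, leukocyte, epicardial and fibroblast genes had 0 exact boxes and shares of 60%, 25%, 33.3% and 20% for either kind. Among the 12 other contractile and SRF-target genes with a window, 2 held an exact box (16.7%), Myl6 and Vcl, and 25% held either kind. The box of Vcl, the gene of the adhesion protein vinculin, is shown because Vcl ranks beside the members in the correlations with Acta2 given further on. It lies at chr14:20929161-20929190 on the plus strand, outside annotated exons, with its first base 227 bases before the start site. Its 10 letters are those of the Cnn2 box.
Vcl: cccactatgcCCTTATAAGGagcgccccgc
A match describes these letters alone, and binding was not measured.

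The shares of cells can be set beside genes that define smooth muscle and beside the non-muscle isoforms of the same proteins. Of the 8 genes that define smooth muscle, 7 were detected in 1 to 10 cells each, among them Myh11, the smooth muscle myosin heavy chain, in 2 and Myocd, the gene of the SRF cofactor myocardin, in 1. The exception was Smtn, detected in 60 cells (32.4%), close to the 36.8% of Tagln. The 11 non-muscle isoforms ran from Myh10 in 92 cells (49.7%), below the 64.9% of Actn1, to the actin Actb in every cell.

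**Figure D2:**
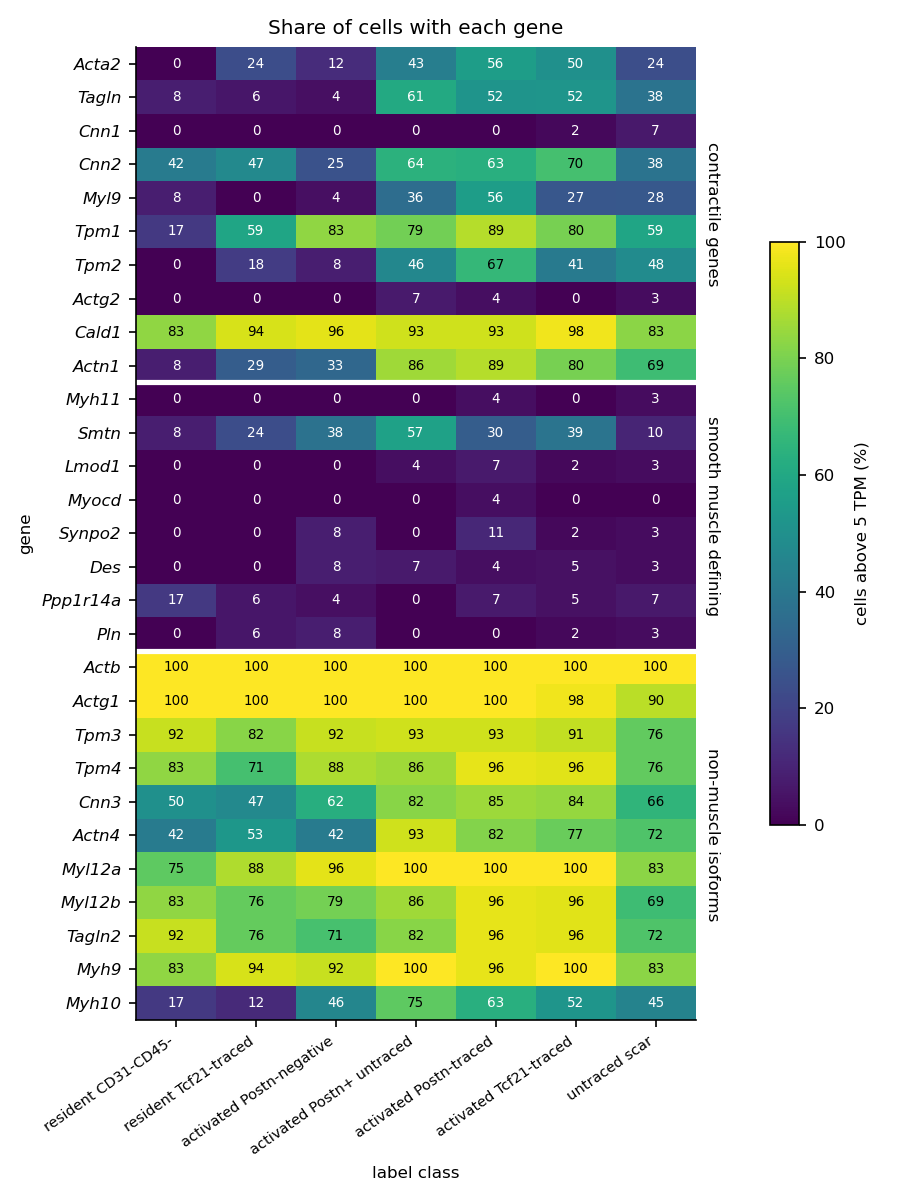
Percent of cells above 5 TPM (colour and printed value, rounded) for the 10 contractile genes, 8 genes that define smooth muscle and 11 non-muscle isoforms, by label class; the 4 Postn+ cells of uninjured heart are not drawn. Among the contractile genes Cald1 is detected in most cells of every class and Cnn1 and Actg2 in almost none, and Actn1 runs from 8.33% in resident CD31-CD45- cells to 88.9% in Postn-traced cells.

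Counted per cell, infarct cells had a mean of 4.58 ± 2.30 of the 10 members and cells of uninjured heart 2.39 ± 1.14. Postn-traced cells had 5.67 ± 2.04 members, from 3 to 9. Postn+ untraced cells had 5.14 ± 2.37 and activated Tcf21-traced cells 5.00 ± 2.19, both from 1 to 9. The 6 Postn+ untraced cells of the Postn-tracer capture had 2.83 ± 1.33 and the 19 of the Tcf21-tracer capture 5.68 ± 2.24. Their median numbers of genes were 2234 and 3361. Untraced scar cells followed at 3.97 ± 2.35, from 0 to 8. Postn-negative infarct cells, with 2.67 ± 1.13, lay close to resident Tcf21-traced cells, with 2.76 ± 0.970, although they came from the infarct. Resident CD31-CD45- cells had the fewest, 1.67 ± 0.888. The ranges of all these classes overlap.

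The single Postn+ resident cell outside the Tcf21 lineage had 5 members, with Actn1 at 9.16, Tpm2 at 8.32, Cnn2 at 7.65, Tpm1 at 6.61 and Cald1 at 6.03. Acta2 and Tagln were listed at 0 in it. The 3 Postn+ Tcf21+ resident cells had a mean of 2.33 members, and Acta2, Tagln, Myl9 and Tpm2 were listed at 0 in all 3.

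Cells with more genes had more members. Across the infarct cells, with class and capture means subtracted, Pearson's r between the 2 numbers was 0.62, and these cells share libraries and captures. Cells were therefore also split at the median number of genes of their capture, a split chosen after seeing the data. It does not match depth between captures. At or above that median, 22 Postn-traced cells had 6.14 ± 1.88 members, 21 activated Tcf21-traced cells 6.52 ± 1.54, 15 Postn+ untraced cells 6.40 ± 2.10 and 14 scar cells 4.93 ± 1.86, while 5 Postn-negative cells had 3.40 ± 1.52. Below it, 5 Postn-traced cells had 3.60 ± 1.34, 23 activated Tcf21-traced cells 3.61 ± 1.73 and 19 Postn-negative cells 2.47 ± 0.964. The 13 Postn+ untraced cells below it had 3.69 ± 1.80. Of these, the 4 from the capture of the Postn-negative cells had 2.25 ± 0.957, and the 8 from the Tcf21-tracer capture 4.25 ± 1.83.

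**Figure D3:**
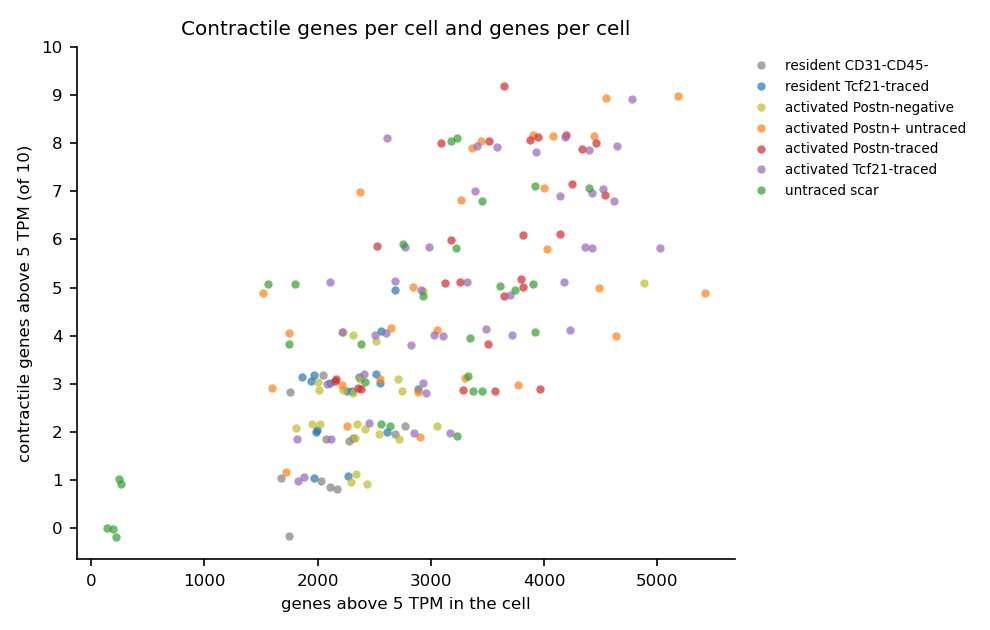
Number of the 10 contractile genes above 5 TPM in each cell against the number of all genes above 5 TPM in that cell, coloured by label class, with points moved slightly up or down for view; the 4 Postn+ cells of uninjured heart are not drawn. Postn-traced cells have 3 to 9 members each, cells with more genes tend to have more members, and the 5 scar cells with fewer than 300 genes lie at the lower left with 0 or 1.

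Postn-traced cells were compared with Postn-negative cells of the same capture, which differ both in the trace and in Postn message. Postn was detected in all 27 traced cells and in 3 of the 24 Postn-negative cells, so trace and message cannot be told apart here. The 6 Postn+ untraced cells of this capture were left out of this contrast. They had 2.83 ± 1.33 members, against 2.67 ± 1.13 in Postn-negative and 5.67 ± 2.04 in Postn-traced cells. The median of the 10 differences of means was 3.48 log2 units, and 7 of 10 members were more than 1 unit higher in the traced cells (0 lower). Among the 9251 genes above 5 TPM in at least 10% of either class, the median was 0.56, with 28.4% more than 1 unit higher and 3.99% lower. These shares depend on the scale: they were 54.7% and 1.84% with centred cells and 31.5% and 20.6% with linear means. Actn1 differed most, at 7.33 ± 2.90 against 2.55 ± 3.75, a difference of 4.78 that 16 genes of the table exceeded. Tagln differed by 4.17, Tpm2 by 3.89, Cnn2 by 3.78, Myl9 by 3.67 and Acta2 by 3.29. The differences of Actn1 and Tpm2 exceeded the larger SD of their pair, 3.75 and 3.38, and those of the others did not. The same was not counted for all genes. Cald1 at 1.05 and Tpm1 at 0.83 differed least among the members that passed the filter on low values. Of the 10 members, 8 passed this filter, and Cnn1 and Actg2 did not.

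The Tcf21-tracer capture compares traced cells with Postn+ cells that carry no trace. The untraced cells were chosen for Postn message, while 39 of the 44 traced cells had it, so the contrast is not of the trace alone. Here 5 of 10 members were more than 1 unit lower in the traced cells (0 higher), with a median difference of -0.94. Among 9679 genes with a median of -0.11, 8.21% were lower and 5.43% higher (15.2% and 2.64% with centred cells, 19.4% and 22.4% with linear means). Of the members, Cnn2 and Cnn1 differed the other way, by 0.17 and 0.11. The largest differences were those of Tagln at -2.12, Myl9 at -1.67, Tpm2 at -1.36 and Acta2 at -1.20, all within the SDs between cells. The 7 myofibroblast matrix genes without Postn had a median of -1.28, with 5 lower and 0 higher. Detection of Acta2 was alike, in 50% of the 44 traced cells and 57.9% of the 19 untraced cells. With Postn+ untraced cells of every capture in place of this one, an alternative chosen after seeing the data, the members' median was -0.08, and with medians over cells it was -0.14.

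In uninjured heart the Tcf21-traced cells were compared with the CD31-CD45- cells of their capture. The median difference was 0.43, and 4 of 10 members were more than 1 unit higher (0 lower), against 18.3% higher and 13.6% lower among 7443 genes with a median of 0.20. These were Tpm1 (3.40), Actn1 (1.35), Tpm2 (1.16) and Acta2 (1.08), and 6 of the 10 members passed the filter. The difference of each lay within the larger SD of its pair. Among the 12 CD31-CD45- cells, 1 had 5 of the 6 leukocyte markers and 1 of the 8 fibroblast genes, and all 10 members were listed at 0 in it. The leukocyte list had a median difference of -0.49. Without this cell, an alternative chosen after seeing the data, the members' median was 0.14, with 4 higher and 1 lower, the median of all genes 0.17 and that of the leukocyte list 0.05.

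Activated cells were then compared with resident Tcf21-traced cells, across captures. In Postn-traced cells the median difference was 2.43 and 7 of 10 members were more than 1 unit higher (0 lower), against 33.3% higher and 4.19% lower among 9429 genes with a median of 0.64 (57.2% and 1.90% with centred cells, 37% and 22.6% with linear means). Actn1 at 5.31 and Tpm2 at 3.42 exceeded the larger SD of their pair. In activated Tcf21-traced cells, the same lineage before and after infarction, the median was 1.60 and again 7 of 10 were higher (0 lower), against 30% higher and 4.71% lower among 8854 genes with a median of 0.56 (50.4% and 2.15% with centred cells, 33.8% and 23.3% with linear means). The members' median was 2.53 with a pseudocount of 0.1 and 1.03 with one of 5, and 5 members were higher with a pseudocount of 5 or with medians over cells. Both comparisons share the resident cells. In the second, Actn1 differed by 4.93, more than the larger SD of 3.67, with 10 genes of the table above it. Tagln differed by 3.62 and Acta2 by 2.59, within their spread.

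The traced classes of the infarct were compared across captures. Activated Tcf21-traced minus Postn-traced gave a median of -0.44, with 2 of 10 members more than 1 unit lower (0 higher), Myl9 at -2.23 and Tpm2 at -1.91, against 10.1% lower and 5.65% higher among 9546 genes with a median of -0.14 (11.3% and 5.05% with centred cells, 21.3% and 17.8% with linear means). In cells with at least the median genes of their capture the members had a median of 0.50, 2 higher and 1 lower, and the median of all genes likewise differed in sign, at 0.13 with 17% higher and 7.79% lower. These cells were cut at 3299 genes in the Tcf21-tracer and at 2715 in the Postn-tracer capture. Untraced scar cells stood below activated Tcf21-traced cells, with a median of -1.12 and 6 of 10 members more than 1 unit lower (0 higher), against 22.9% lower and 1.93% higher among 9081 genes with a median of -0.42. Cnn2 at -2.92 and Acta2 at -1.95 differed most, and Myl9 and Tpm2 did not follow, at 0.40 and 0.29. The scar capture includes 5 cells with fewer than 300 genes.

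Postn-negative infarct cells were compared with resident CD31-CD45- cells, also across captures, and 5 of the 10 members passed the filter on low values. The median difference of the 10 was 0.20, with 2 of 10 members more than 1 unit higher and 1 lower, against 22% higher and 10.9% lower among 7347 genes with a median of 0.30. Tpm1 was higher by 4.32, above the larger SD of 3.20, and 10 genes of the table exceeded it. Actn1 was higher by 1.88, and the difference of Cnn2 was -2.69. Acta2 and Tagln differed by 0.88 and -0.15. The leukocyte list had a median difference of -0.81. Without the CD31-CD45- cell rich in leukocyte markers that median was 0.00 and the members' median 0.00, again with 2 higher and 1 lower.

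Classes differ in the number of genes per cell, which moves the scale. Centring each cell on its median detected gene shifted the median of all genes from 0.56 to 1.08 for Postn-traced minus Postn-negative, from -0.11 to -0.37 for Tcf21-traced minus Postn+ untraced cells, and from 0.64 to 1.14 and from 0.56 to 1.01 for the comparisons of Postn-traced and Tcf21-traced with resident Tcf21-traced cells. Relative to the median of all genes, the members' medians were 2.92, -0.83, 1.79 and 1.04, which centring cannot alter because it shifts every gene of a cell alike. With linear means in place of log2 means they were 2.04, -0.90, 1.19 and 1.03. In cells with at least the median genes of their capture, a subset chosen after seeing the data that kept 5 Postn-negative cells, the medians of the members were 2.75, -0.40, 2.90 and 2.82, and those of all genes 0.43, 0.01, 0.68 and 0.86. The comparisons with resident cells cross captures and remain unmatched for depth in this subset. Resident cells were cut at 2258 genes and none exceeded 2887, while Postn-traced cells were cut at 2715 and Tcf21-traced cells at 3299.

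Detection together with Acta2 was counted in the infarct cells, 59 with and 93 without it. Tpm2 was detected in 43 of the 59 cells with Acta2 (72.9%, interval 59.7% to 83.6%) and in 22 of the 93 without (23.7%, interval 15.5% to 33.6%), a difference of 49.2 points. No other gene among the 7725 detected in 10% to 90% of the pooled infarct cells had a larger difference. Cnn2 was detected in 49 (83.1%) against 34 (36.6%), and Tagln in 42 (71.2%) against 24 (25.8%), differences of 46.5 and 45.4 points that 2 and 3 genes exceeded. Actn1 was found in 56 of the 59 (94.9%) and 55 of the 93 (59.1%), a difference of 35.8 points. For these 4 genes the intervals with and without Acta2 do not overlap. The share of all genes with such intervals was not counted. The first place of Tpm2 holds for the pooled cells. Within classes 434 genes exceeded it in Postn-traced cells, 85 in activated Tcf21-traced cells and 600 in scar cells. In Postn+ untraced cells of the Tcf21-tracer capture 2 did. In cells with at least the median genes of their capture Tpm2 differed by 32 points, below Tagln at 40.8 and Cnn2 at 35.4. Actn1 differed by 18.3 points there.

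Myl9 was detected in 28 of the 59 cells with Acta2 (47.5%) and 18 of the 93 without (19.4%), and Tpm1 in 53 (89.8%) against 65 (69.9%). Their intervals do not overlap either, that of Tpm1 narrowly (from 79.2% against up to 79%), again without a count over all genes. Cald1, detected in most cells anyway, gave 96.6% against 90.3%, and Cnn1 1 cell against 2. Over the 9 other members the median difference was 28.1 points, and 5 of 9 reached 20 points, against a median of 9.97 and 15.5% of the background genes. Cells with Acta2 had 5.64 ± 1.67 of the 9 other members and cells without it 3.27 ± 1.56. They also had more genes of any kind, a median of 3646 against 2636.

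The same count was made within captures and in cells rich in genes. Members that reached 20 points numbered 6 of 9 in the Postn-tracer capture (25.7% of background genes), 5 of 9 in the Tcf21-tracer capture (18.4%) and 6 of 9 in the scar capture (26.1%, 8 cells with Acta2). The medians were 37.6, 27 and 33.3 points. Among infarct cells at or above the median number of genes of their capture, 43 with Acta2 (median 4001 genes) and 34 without (median 3626), the members' median was 23.5 points and 5 of 9 reached 20, against a median of 3.28 and 6.83% of background genes. These 5 included Tpm1 at 23.5 points and no longer Actn1, at 18.3. Within single classes the members' median was 25 points in Postn-traced cells (5.0 for background genes), 27.3 in activated Tcf21-traced cells (13.6), 30.5 in scar cells (5.19) and 15.9 in Postn+ untraced cells of the Tcf21-tracer capture (3.41). Not every member differed within a class: Actn1 differed by 10 points in Postn-traced and by -9.09 in these Postn+ untraced cells, and Tpm1 by 4.55 in activated Tcf21-traced cells. Myl9 differed by 1.30 points in scar cells.

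**Figure D4:**
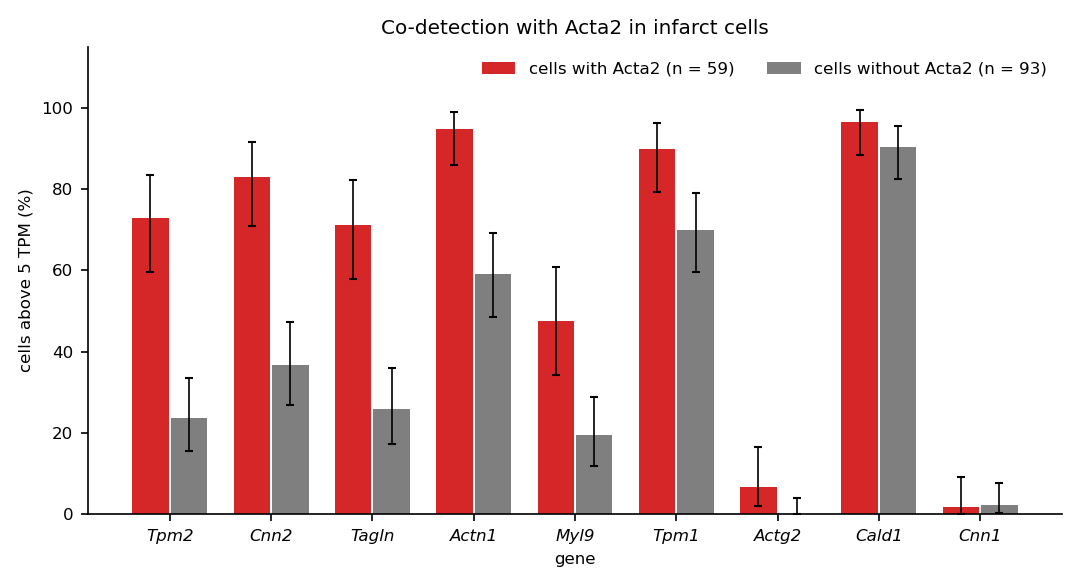
Percent of infarct cells in which each of the 9 other members is above 5 TPM, in the 59 cells with Acta2 and the 93 without, with exact 95% Clopper-Pearson intervals. The widest gap is that of Tpm2, at 72.9% against 23.7%, and the intervals of Tpm2, Cnn2, Tagln, Actn1, Myl9 and Tpm1 do not overlap. The share of all genes with such intervals was not counted.

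The level of several members was also higher where Acta2 was detected, among cells in which the member itself was detected. Actn1 was 8.89 ± 1.29 in 56 cells with Acta2 and 7.52 ± 1.64 in 55 without, Cald1 9.13 ± 1.70 against 7.76 ± 2.19, and Tpm1 8.0 ± 1.96 against 6.52 ± 2.03. Myl9, at 7.52 ± 2.11 against 7.42 ± 2.67, showed almost no difference in level. Each of these differences lies within the larger SD of its pair. No such value is given for all genes, so whether the shift is particular to the members was not tested.

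Acta2, Tagln, Myl9 and Tpm2, 4 members chosen after their values were seen, were counted together in the infarct. Cnn2, Tpm1 and Actn1, also neither rare nor universal, were left out. All 4 were detected in 25 infarct cells (16.4%, interval 10.9% to 23.3%), and none of the 4 in 47 (30.9%). All 4 were found in 8 of 27 Postn-traced cells (29.6%), 7 of 28 Postn+ untraced cells (25%), 8 of 44 activated Tcf21-traced cells (18.2%), 2 of 29 scar cells (6.90%) and 0 of 24 Postn-negative cells, of which 19 had none. Infarct cells with all 4 had a median of 3925 genes and those with none 2381.

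Pearson's r with Acta2 was computed over all infarct cells, with class and capture means subtracted, for the 5273 genes detected in at least 20% of them. The cells share libraries, captures and depth, so r is a description. Tpm2 ranked first at 0.59, followed by Cnn2 (0.50), Tagln (0.49) and Actn1 (0.44). Tpm1 ranked 7 at 0.43, Myl9 15 at 0.39 and Cald1 125 at 0.29. Of the 7 members in this range 6 had an r above 0.3, against 1.95% of all genes, and their median was 0.44 against 0.10. In the Postn-tracer capture alone 4 of 7 did, against 4.85% of all genes, and the medians were 0.37 and 0.07. Cnn1 and Actg2 were too rarely detected. The member with the highest r differed between subsets of cells. It was Tagln in the Postn-tracer capture (0.55, Tpm2 0.42) and Tpm2 in the Tcf21-tracer capture (0.73). Tpm1 was highest in the scar capture (0.56, Tpm2 0.49) and Myl9 in cells with Acta2 (0.61, Tpm2 0.53).

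The other genes among the 10 highest were Wisp1 (0.44), a secreted matricellular protein, Vcl (0.43), Ecscr (0.42), the glycolytic enzyme gene Tpi1 (0.41) and the splicing factor gene Snrpb (0.41). At the other end, chosen after the values were seen, stood Htra3 (-0.39), Dpep1 (-0.35), Lrrc61 (-0.34), Mmp2 (-0.29) and Scara5 (-0.29). The 8 fibroblast genes had a median r of -0.04, from -0.25 for Tcf21 to 0.29 for Col1a2. Between the members, the 28 pairs of the 8 commoner genes had r from 0.08 (Myl9 with Cald1) to 0.59 (Acta2 with Tpm2), with a median of 0.34.

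**Figure D5:**
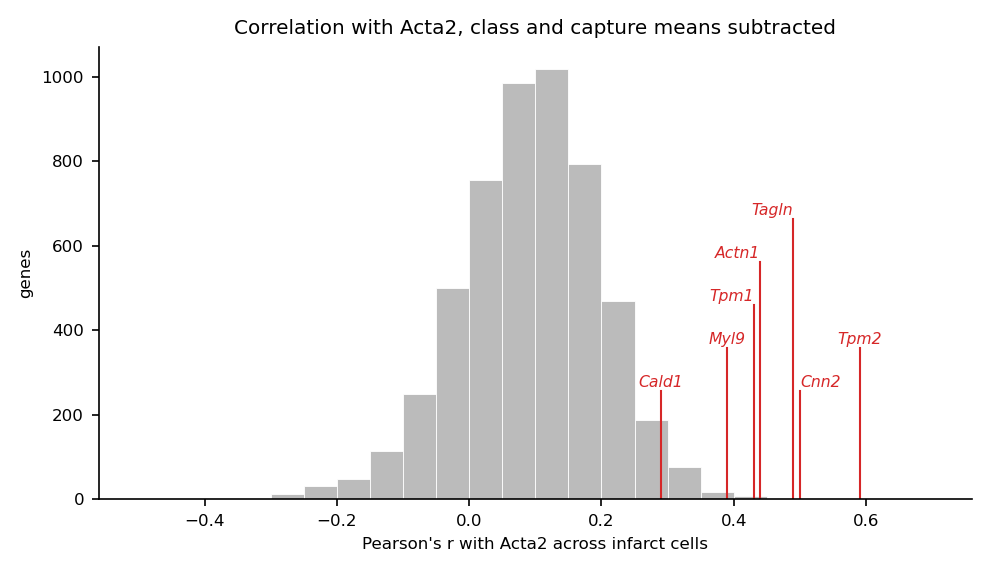
Histogram of Pearson's r with Acta2 for 5273 genes across all infarct cells, class and capture means subtracted, with the 7 other members in range drawn as lines whose heights differ only for legibility. The lines lie from 0.29 (Cald1) to 0.59 (Tpm2), and the median of all genes is 0.10.

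Cells with Acta2 were checked against markers of the other cells that express it. Of the 63 such cells, 28 had 0 of the 8 genes that define smooth muscle, 29 had 1, 5 had 2 and 1 had 3 or more. The most abundant was Smtn, with a mean of 37.4 TPM, and in the 122 cells without Acta2 it stood at 48.2 TPM. Of those 122 cells, 74 had 0 of the 8 genes, 41 had 1, 6 had 2 and 1 had 3 or more. The median summed level of the 8 genes was 9.97 TPM in cells with Acta2 and 0 in the others, while the mean was 52.3 TPM and 67.7 TPM. Myh11 was detected in 1 of the 63 and Myocd in 0. Of the 8 pericyte markers, 45 of the 63 cells had 0, 12 had 1, 3 had 2 and 3 had 3 or more, with Rgs5 most abundant at a mean of 71.8 TPM and detected in 3 cells. Of the 122 cells without Acta2, 104 had 0 pericyte markers, 17 had 1, 1 had 2 and 0 had 3 or more. The summed level of the pericyte genes had a mean of 129 TPM in cells with Acta2 and 32 TPM in the others, and a median of 0.265 and 0 TPM. The part of such cells in the levels was tested only by leaving out 4 cells with at least 3 smooth muscle or pericyte markers.

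Of the 6 endothelial markers, 50 of the 63 cells had 0 and none had over 1, and of the 6 leukocyte markers 54 had 0 and none had over 1. At least 3 of 10 striated muscle genes were found in 2 cells and at least 3 of 6 epicardial genes in 1. Each of the 63 cells had at least 5 of the 8 fibroblast genes, with a median sum of 16713 TPM against 22073 TPM in cells without Acta2. The 4 cells with at least 3 smooth muscle or pericyte markers also had 5 to 7 of these genes, so this count does not set cell types apart. In the infarct 55 of the 59 cells with Acta2 had Postn, which was detected in 121 infarct cells. Leaving out the 4 cells with at least 3 smooth muscle or pericyte markers, 3 of them with Acta2, gave a median co-detection difference of 26.9 points in place of 28.1 and a median correlation of 0.44, as before.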

How the data were processed

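Values were deposited by the authors as log2 (TPM+1), in 1 table with 17171 genes and a column for each of 185 cells, 152 of them from infarcts. Per the processing notes, single-end reads were aligned with Bowtie 1.0.0 to mm10 and quantified with eXpress 1.5.1. The file title names FPKM and the header TPM, and TPM was taken because sums per cell lie from 999257 to 1000000. A further 3 columns hold identifiers and were not used. Cells were grouped by label and by capture. A class was summarised by its mean log2 value over cells, with the authors' pseudocount of 1, and no further normalization or test was applied. Detection meant above 5 TPM. Differences were counted beyond 1 log2 unit among genes detected in at least 10% of the cells of either class, co-detection differences from 20 points among genes detected in 10% to 90% of the cells, and correlations above 0.3 among genes detected in at least 20%. Genes per cell ranged from 141 to 5419.

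The genes named are the members, the genes of the other lists given as counts with examples, and the 10 with the highest r with Acta2; others are marked as chosen after their values were seen. The members and lists were chosen with earlier results of these data known. The lists cover genes that define smooth muscle, other contractile and SRF-target genes, non-muscle isoforms, SRF and its cofactors, myofibroblast matrix, and striated muscle, pericyte, endothelial, leukocyte, epicardial and fibroblast markers; Cdh5 is not listed in the table. Promoter windows came from RefSeq (build GRCm38.p6), and stretches of 100 bases were compared over annotated transcripts. The difference, co-detection and correlation steps were tested on simulated data. Alternatives changed 1 choice at a time: linear means, medians over cells, pseudocounts of 0.1 and 5, centred cells, minimums of 1 and 10 TPM or any value over 0, a filter on low values, subsets of cells and single captures, and Spearman's correlation. The work ran in Python 3.11.15 with pandas 2.3.3 and NumPy 2.4.6 for tables, SciPy 1.17.1 for intervals and Matplotlib 3.10.9 for plots.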

Additional observations from a re-analysis of the deposited data

How the results depend on the processing

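Of 144 values recomputed under an alternative, 129 stayed within the limits set for each kind and 15 moved beyond them. The limits were 1 log2 unit for a median difference, 10 points for co-detection and 0.1 for r. For a share the limit was the interval, and for a count 1.5 times. The label reversed was given to 0 values, but a count or a share has no sign and could not receive it. A median difference that changed sign within its limit did not receive it either. These totals therefore overstate stability. For 14 values the alternative left out no cell of the classes compared, so they could not move, 17 are counts of higher members that were 0 and remained 0, and medians of -0.94 and -0.44 could pass the limit of 1 unit upwards only by changing sign. The median of -0.94 for Tcf21-traced minus Postn+ untraced cells was -0.08 with the untraced cells of every capture. Counts of lower members were recomputed as an alternative chosen after seeing the data, and with medians over cells the 5 of this comparison became 3 and the 2 of Tcf21-traced minus Postn-traced cells became 4. In cells with at least the median genes of their capture, likewise chosen after seeing the data, the median of -0.44 for Tcf21-traced minus Postn-traced cells was 0.50, a change of sign within the limit shared by the median of all genes (-0.14 to 0.13), with 2 members higher and 1 lower, and the median of 1.60 for Tcf21-traced minus resident Tcf21-traced cells was 2.82. For Postn-traced minus Postn-negative cells the median difference of 3.48 was 2.21 with linear means, 5.04 with medians over cells, and 4.76 and 2.46 with pseudocounts of 0.1 and 5. For Postn-traced minus resident Tcf21-traced cells the median of 2.43 was 4.99 with medians over cells and 3.52 with a pseudocount of 0.1. The share of activated Tcf21-traced cells with Acta2, 50% as reported, was 68.2% at any value over 0, and 76.2% (16 of 21) in cells with at least the median genes of their capture, an alternative chosen after seeing the data. The median correlation of 0.44 was 0.54 with centred cells, where that of all genes went from 0.10 to 0.25 and 26.1% of genes in place of 1.95% exceeded 0.3, and 0.34 in the scar capture alone (0.10, 12.6%).

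No paired analysis was possible because the labels do not pair cells with mice. Depth limits what a value at 0 means, since each cell's read number is unknown and infarct cells with Acta2 had more genes than those without. Class and capture cannot be told apart in the comparisons across captures. The subset with at least the median genes of a capture does not match depth between captures. All 7 cells under 50% of their capture's median number of genes were in the scar capture.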

Other observations

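Genes related to the members showed a range of patterns between Postn-traced and Postn-negative cells. Of the 11 non-muscle isoforms, the traced cells had 6 higher and 1 lower by over 1 log2 unit, with a median difference of 1.38. Myh9, a non-muscle myosin heavy chain, was 5.85 ± 1.08 against 4.08 ± 1.09, and Actn4, a non-muscle α-actinin, 5.17 ± 2.51 against 2.41 ± 3.04. Of the 16 other contractile and SRF-target genes 6 were higher and 0 lower, with a median of 0.75, close to the 28.4% higher and median of 0.56 among all genes compared. Csrp2, a LIM domain protein of smooth muscle, was 8.94 ± 3.20 against 2.78 ± 4.19. Mylk, the gene of myosin light chain kinase, had a mean of only 0.38 ± 1.35 in traced cells and was listed at 0 in each of the 24 Postn-negative cells. Without Postn, whose message defines the classes, 7 of 7 myofibroblast matrix genes were more than 1 unit higher, with a median of 4.93.

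Among SRF and its cofactors, 3 of 9 were higher and 1 lower, with a median of 0.29, against 28.4% and 3.99% of all genes compared. Fhl2, a LIM domain cofactor, was 4.69 ± 4.14 in Postn-traced and 1.16 ± 2.69 in Postn-negative cells, and Mkl2, a myocardin-related cofactor, 3.89 ± 2.37 and 1.53 ± 2.58. Klf4, a repressor of smooth muscle genes, was 6.54 ± 2.76 and 8.90 ± 2.28. Srf itself was low in both, at 1.36 ± 2.23 and 1.15 ± 2.29. Within infarct cells the r with Acta2 was 0.12 for Fhl2, 0.11 for Mkl2 and -0.16 for Klf4. Of the 8 fibroblast genes 3 were higher and 2 lower in this comparison. The lists of other cell types cannot be compared here, since 0 striated muscle, pericyte, leukocyte or epicardial genes and 1 endothelial gene passed the filter on low values.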
